A study of Homo sapiens with 32 samples.

Results

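Receptor-type protein tyrosine phosphatases were examined through the N6-methyladenosine (m6A) peaks called on the RNA of 9 of their genes: PTPRF, PTPRS, PTPRD, PTPRK, PTPRM, PTPRG, PTPRJ, PTPRA and PTPRE. A peak belonged to a gene when its summit lay inside the RefSeq span of that gene on hg38, on either strand. By this rule 472 of the 180114 peaks in 4 deposited lists were members, and they merged into 180 of 66409 loci, a locus being peaks that share at least 1 bp on 1 strand. The genes were chosen by what these same lists hold, the presence and the folds of their peaks in the 2 groups, and presence in one group or the other is therefore given as a description with no test.

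The lists came from A375 cells, an established human melanoma line, by m6A immunoprecipitation and sequencing (MeRIP-seq) of chromatin-associated RNA depleted of ribosomal RNA. The groups were 2 shMETTL3 libraries, labelled METTL3 knockdown, and 2 shControl libraries, labelled WT. METTL3 is the enzyme that writes most m6A on mRNA, and the comparison asks which m6A loci depend on it. These 4 are among 32 samples in 16 groups, and the others are not analysed here. All 4 libraries share the cell line, the RNA fraction and the m6A antibody kit. The labels do not say how the hairpin RNAs were delivered or whether replicates were separate cultures, and differences between replicates may therefore be technical.

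The 2 shMETTL3 lists held 44108 and 42969 peaks, and the 2 shControl lists 45345 and 47692. METTL3 itself carried 5 peaks in each of the 4 lists, which does not measure how much of its RNA was left. Of 8 melanocyte lineage markers only MITF carried peaks (7 and 9 in the shMETTL3 lists, 5 and 8 in the shControl lists), while PMEL, MLANA, TYR, TYRP1, DCT, SOX10 and S100B carried none. All 5 markers of dedifferentiated melanoma did, and TNC among them had 11 and 10 peaks in the shMETTL3 lists and 35 and 34 in the shControl lists, a difference whose part in the results was not tested. So did 1 of 5 fibroblast markers (LUM, 1 peak), while 0 of 5 keratinocyte and 0 of 5 leukocyte markers carried any. Fewer peaks in both shMETTL3 lists, as in TNC, were found in 31.4% of the 6181 genes with at least 10 peaks. In this bulk RNA, fewer cells with a transcript, less of it per cell and less methylation cannot be told apart from a peak list. How many reads each list rests on is unknown.

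Receptor-type tyrosine phosphatases span the plasma membrane, with an extracellular part that resembles adhesion molecules and intracellular catalytic domains that remove phosphate from tyrosines. They counter receptor tyrosine kinases, some activate Src-family kinases, and several act at cell-cell contacts, synapses and growing axons. In melanoma, PTPRD is known as a gene often hit by deletion or mutation. m6A is placed co-transcriptionally by the METTL3 complex, so chromatin-associated RNA holds marks on introns as well as exons. The RefSeq table used here gives gene spans without exons, so whether a locus was exonic, intronic or in an untranslated region is not given.

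Of the 9 genes, 8 had entries in a RefSeq promoter table (GRCh38.p14, the build of hg38), with 15 annotated start windows, and 4 of these lay under a peak. The windows of PTPRF, PTPRG and PTPRM are shown because their starts behaved differently: a control-only peak at PTPRF, and peaks in all 4 lists at PTPRG and PTPRM. Each runs 5′ to 3′ on the transcribed strand from 250 bases before the annotated start and ends 30 bases into the transcript, and capitals mark the bases under a peak of at least 1 list.
PTPRF (chr1:43530633-43530912, plus strand): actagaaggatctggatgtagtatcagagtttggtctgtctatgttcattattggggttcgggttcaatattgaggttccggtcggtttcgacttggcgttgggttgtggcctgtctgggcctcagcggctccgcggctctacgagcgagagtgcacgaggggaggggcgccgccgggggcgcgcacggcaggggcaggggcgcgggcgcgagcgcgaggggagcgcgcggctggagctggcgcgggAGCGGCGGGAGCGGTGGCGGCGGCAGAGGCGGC
PTPRG (chr3:61561321-61561600, plus strand): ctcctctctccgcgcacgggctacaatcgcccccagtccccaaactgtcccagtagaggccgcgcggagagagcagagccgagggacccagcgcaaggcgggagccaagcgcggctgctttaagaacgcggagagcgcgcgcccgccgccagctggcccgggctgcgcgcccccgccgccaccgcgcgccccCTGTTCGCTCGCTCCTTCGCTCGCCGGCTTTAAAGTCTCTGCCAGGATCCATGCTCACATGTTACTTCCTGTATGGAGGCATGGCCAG
PTPRM (chr18:7567066-7567345, plus strand): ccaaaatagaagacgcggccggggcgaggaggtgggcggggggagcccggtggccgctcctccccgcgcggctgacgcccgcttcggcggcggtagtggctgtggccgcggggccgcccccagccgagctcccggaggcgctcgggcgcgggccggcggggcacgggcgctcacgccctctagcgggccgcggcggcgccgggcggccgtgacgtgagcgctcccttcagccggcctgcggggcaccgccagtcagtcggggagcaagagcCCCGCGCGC
The GC content of these windows was 68.2% for PTPRF, 68.9% for PTPRG and 80.7% for PTPRM, against a median of 58.2% over all 35116 windows of the table cut in the same way. The fourth window under a peak, at an internal start of PTPRD, had 40% GC, and its peaks were in all 4 lists. The motif GGAC, the core of the common m6A consensus, was searched on both strands. PTPRG held it 1 time on the transcribed strand, outside the capitals, and 2 times on the opposite strand, while PTPRF and PTPRM held it on neither. Only 33 bases under a peak were searched at PTPRF, 88 at PTPRG and 9 at PTPRM. Most of the sequence under these peaks lies past the windows, so the search cannot say whether the peaks hold the motif. Of all windows, 63.3% held GGAC on the transcribed strand and 63.4% on the opposite one.

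Across the 9 genes together, knockdown-only and control-only loci numbered 19 and 16, and 23 and 12 when the lists were cut to equal length. A locus is called knockdown-only with a peak in both shMETTL3 lists and neither shControl list, and control-only in the reverse case. Knockdown-only were 19 of the 89 loci in both shMETTL3 lists, or 21.3% (95% Wilson interval 14.1% to 31.0%), against 18.9% over all 33195 such loci. Control-only were 16 of the 89 loci in both shControl lists, or 18.0% (11.4% to 27.2%), against 22.6% over all 36660. With lists of equal length the shares over all loci were 20.9% knockdown-only and 21.1% control-only. In all 4 lists were 61 of 180 loci, or 33.9% (27.4% to 41.1%), against 35.7% of all 66409. The intervals cover counting error only, and all 3 shares are near those of the whole lists. They treat loci as independent, although 33 of the 89 loci in both shMETTL3 lists were in PTPRM. All loci also come from the same 4 libraries, and the genes were chosen on these lists. The intervals are therefore no test against the shares of all loci. Each knockdown-only or control-only call rests on 2 libraries against 2, a design in which an exact two-sided permutation test cannot go below p = 0.333.

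The numbers of peaks differed more between genes than between groups. PTPRM carried the most, 44 and 46 in the shMETTL3 lists and 34 and 39 in the shControl lists. PTPRF carried 21 and 15 in the shMETTL3 lists and 21 and 20 in the shControl lists. For PTPRD the numbers were 19 and 21 in the shMETTL3 lists and 21 and 21 in the shControl lists. Among the 8 members with at least 10 peaks in the 4 lists together, the groups did not overlap in 4. PTPRM, PTPRG and PTPRJ had more peaks in both shMETTL3 lists, which held for 20% of the 6181 genes with as many peaks. PTPRK had fewer in both, which held for 31.4% of them.

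**Figure D1:**
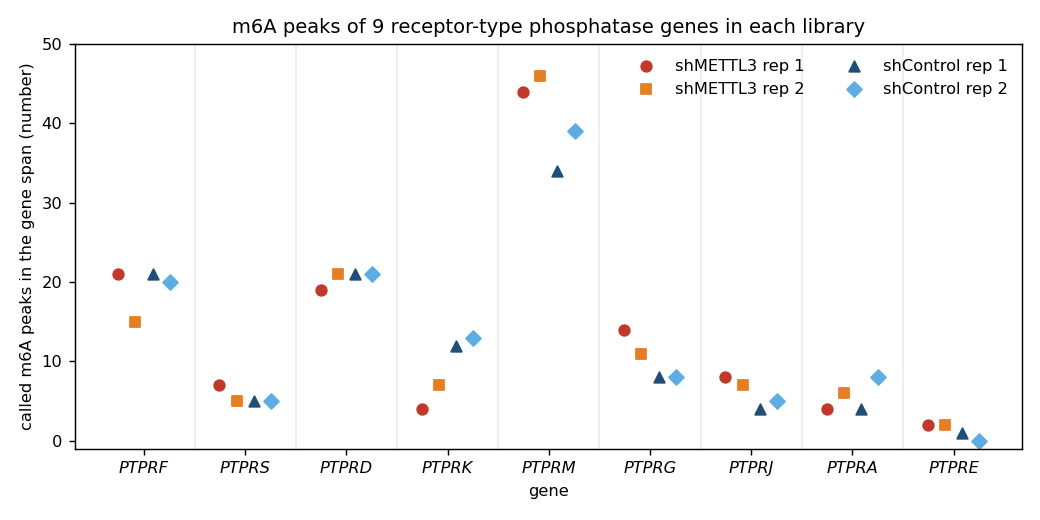
Number of called m6A peaks with a summit in each gene (vertical axis) for the 9 genes (horizontal axis), 1 point per library. The 44 and 46 peaks of the shMETTL3 libraries in PTPRM lie above the 34 and 39 of the shControl libraries, and the 4 and 7 in PTPRK below the 12 and 13.

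The LAR group, PTPRF, PTPRS and PTPRD, binds heparan and chondroitin sulfate proteoglycans and synaptic adhesion proteins, and docks liprins inside the cell. PTPRF (also called LAR; chr1:43522051-43623666, plus strand) held the most loci per length of the 9 genes, with 32 loci in 102 kb. That is more loci than in 99.1% of the 10733 protein-coding genes with any locus, and with 31.5 loci per 100 kb it had more than 80.2% of them. Its loci in both shMETTL3 lists numbered 12, and those in both shControl lists 17. Over all such loci 18.9% were knockdown-only and 22.6% control-only. In PTPRF 3 loci were knockdown-only, 5 control-only and 7 in all 4 lists. Of 1118 genes with at least 10 loci in 2 or more lists, 43 (3.85%) likewise had at least 3 of each of the first 2 kinds. This cut of 3 equals the knockdown-only count of PTPRF itself, so the share is a description only. It also depends on the number of loci, and PTPRF had 24 in 2 or more lists. PTPRM, with 6 knockdown-only and 4 control-only loci, met the cut too.

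PTPRF showed its strongest loci near the beginning of its span. The locus at chr1:43523289-43524452 had folds of 10.7 and 9.20 in the shMETTL3 lists and 7.23 and 6.90 in the shControl lists. The folds are the authors' own enrichment values for each peak within its list, and they place this locus above at least 93.6% of the peaks of every list. A second locus in all 4 lists, at chr1:43528534-43528947, had 7.53 and 7.36 in the shMETTL3 lists and 4.48 and 5.01 in the shControl lists. Between these, chr1:43526607-43527471 was knockdown-only, with folds of 10.4 and 11.3 in shMETTL3 replicates 1 and 2, above 98.8% and 99.2% of the peaks of those lists. Neither shControl list had a peak there. The next locus, chr1:43527578-43528172, was also knockdown-only, with folds of 3.41 and 4.24. Both lie before the start in the promoter table, at -4276 to -3412 bp and at -3305 to -2711 bp.

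The control-only locus of PTPRF that ranked highest sat on that start. At chr1:43530880-43531070 it ran from -3 to 187 bp around the annotated first base, with folds of 7.23 and 6.95 in shControl replicates 1 and 2, above 93.6% and 94.2% of the peaks of those lists. No shMETTL3 list had a peak there, and the closest shMETTL3 peaks were those of the locus ending at -1936 bp and of one starting at 3366 bp. Among the 3 member loci that cover an annotated start and were in both shControl lists, this was the 1 that was control-only, against 10.6% of the 1061 such loci in all genes. The others, in PTPRG and PTPRD, were in all 4 lists.

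The other control-only loci of PTPRF lay farther down the gene and were mostly weak. At chr1:43613481-43613639 the folds were 6.50 and 2.67 in the shControl lists, and at chr1:43569497-43569683 they were 3.27 and 2.67. The remaining control-only loci, chr1:43617644-43617803 and chr1:43578672-43578822, had folds of 2.34 and 2.43, and of 2.25 and 1.86. The third knockdown-only locus, chr1:43570494-43570817, with folds of 3.67 and 6.46 in the shMETTL3 lists, lay about 1 kb from a control-only one. Split at the annotated start, a division made after the values were seen, the 8.83 kb before it held 5 and 5 peaks in the shMETTL3 lists and 2 and 3 in the shControl lists, covering 3094 and 2941 bp against 531 and 705 bp. The 92.8 kb from the start on held 16 and 9 peaks in the shMETTL3 lists and 19 and 17 in the shControl lists. With a reciprocal overlap of at least 50%, 2 control-only loci lay before the start, against 0 as reported, and without shMETTL3 replicate 2 there were 5 knockdown-only loci after it in place of 1. No share of other genes with such a split was computed. RNA level along the gene is not measured by these lists, and its part in this split was not tested.

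**Figure D2:**
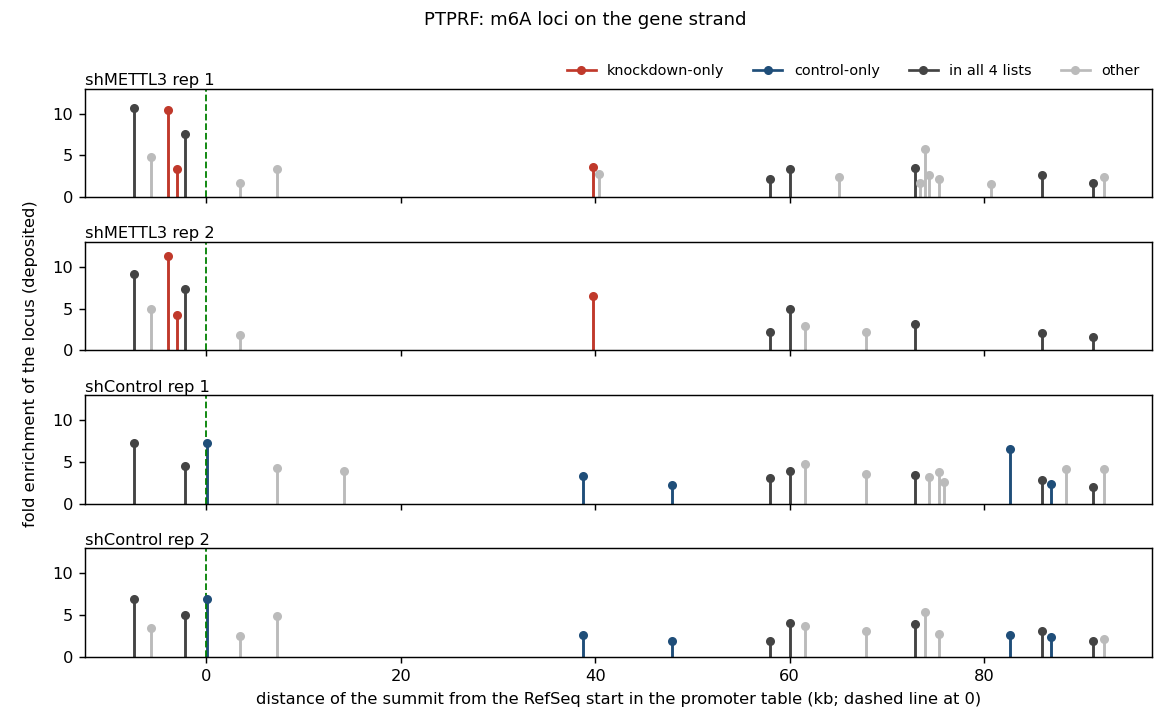
Deposited fold enrichment (vertical axis) of each PTPRF locus on the gene strand against the distance of its summit from the annotated start in kb (horizontal axis, dashed line at 0), with 1 panel per library and colours for the class of the locus. Before the start, the shMETTL3 panels have 5 loci each and the shControl panels 2 and 3, and the control-only locus at the start has folds of 7.23 and 6.95.

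PTPRS, which binds both kinds of proteoglycan at growing axons, had 8 loci on the minus strand of chr19:5205508-5340812. Of these, 1 was knockdown-only, 0 were control-only and 3 were in all 4 lists. Only 4 of them were in both shMETTL3 lists, and 4 were in both shControl lists. The shares over all such loci were 18.9% knockdown-only and 22.6% control-only, and counts this small cannot be told apart from them. The strongest, chr19:5243955-5244583, had folds of 11.4 and 11.7 in the shMETTL3 lists and 10.5 and 8.84 in the shControl lists, above at least 98.6% of the peaks of each list. At chr19:5221181-5221332 the folds were 2.58 and 3.26 in the shMETTL3 lists and 3.18 and 3.47 in the shControl lists. The knockdown-only locus was weak, with folds of 3.01 and 2.98 at chr19:5238482-5238651. No locus lay in the first 55.9% of the span.

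PTPRD, on the minus strand of chr9:8314246-10613002, had most of its loci in both groups: 15 of 24 were in all 4 lists, 2 were knockdown-only and 1 was control-only. Its loci in both shMETTL3 lists numbered 17, and those in both shControl lists 18. The shares over all such loci were 18.9% knockdown-only and 22.6% control-only, and 35.7% of all loci were in all 4 lists. With 2299 kb it is the longest of the 9 genes and held only 1.04 loci per 100 kb. Its 22 loci on the gene strand all lay past 76.3% of the span, and none was found in the stretch before that. The strongest locus by its lowest fold was chr9:8327065-8329434, with 7.13 and 7.33 in the shMETTL3 lists and 7.67 and 6.46 in the shControl lists. At chr9:8517817-8518558 the folds were 10.1 and 11.2 in the shMETTL3 lists and 9.49 and 5.97 in the shControl lists. The knockdown-only loci had folds of 3.86 and 3.19 (chr9:8324791-8325200) and of 3.01 and 3.07 (chr9:8504274-8504438), and the control-only locus had 3.17 and 3.07 (chr9:8759451-8759852). A peak of every list covered the annotated internal start at 8733946, with folds of 3.42 and 4.30 in the shMETTL3 lists and 3.53 and 2.71 in the shControl lists.

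**Figure D3:**
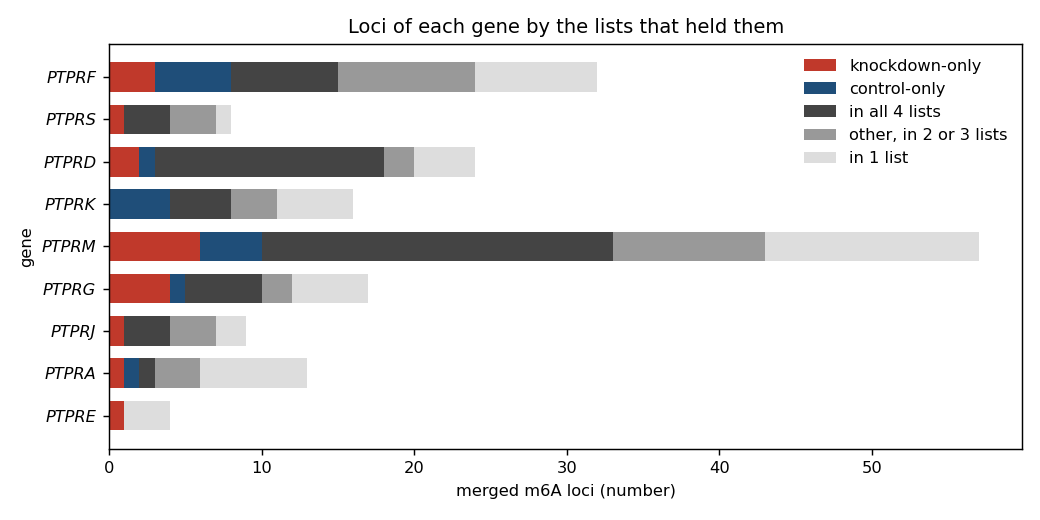
Number of merged loci (horizontal axis) for each of the 9 genes (vertical axis), split by colour into knockdown-only, control-only, in all 4 lists, in other sets of 2 or 3 lists, and in 1 list. PTPRK has 0 knockdown-only and 4 control-only loci, PTPRG 4 and 1, and PTPRD has 15 of 24 loci in all 4 lists. Loci in both shMETTL3 lists number 4 for PTPRK and 10 for PTPRG, and in both shControl lists 9 and 7. The shares over all such loci are 18.9% knockdown-only and 22.6% control-only, and 35.7% of all loci are in all 4 lists.

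PTPRK and PTPRM, phosphatases with an extracellular MAM domain that bind their own kind on neighbouring cells and act at cadherin contacts, differed in their peaks. PTPRK (minus strand, chr6:127968785-128520599) had 4 and 7 peaks in the shMETTL3 lists against 12 and 13 in the shControl lists. Of its 16 loci, 0 were knockdown-only, 4 were control-only and 4 were in all 4 lists. Only 4 of its loci were in both shMETTL3 lists, and 9 were in both shControl lists. Over all such loci 18.9% were knockdown-only and 22.6% control-only. The strongest control-only locus, chr6:128242575-128242732, had folds of 5.06 and 4.98 in the shControl lists. Others were weaker, with 2.47 and 3.24 at chr6:128287808-128288118 and 2.62 and 1.88 at chr6:128480095-128480385. Among loci in all 4 lists, chr6:128051273-128051934, which also lies in the span of the antisense RNA gene PTPRK-AS1, had folds of 6.21 and 5.50 in the shMETTL3 lists and 6.68 and 5.44 in the shControl lists. At chr6:128089763-128090114 they were 6.91 and 6.85 in the shMETTL3 lists and 4.996 and 4.89 in the shControl lists. With peaks of a fold of at least 4 only, PTPRK had 1 control-only locus. Without loci in the spans of other genes it had 2 in all 4 lists and 4 control-only.

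PTPRM (plus strand, chr18:7567316-8406856) had more loci than 99.9% of protein-coding genes with any locus, but per 100 kb of its 839.5 kb it had more than only 34.1% of them. Of its 57 loci, 6 were knockdown-only, 4 control-only and 23 in all 4 lists. The 6 were among 33 loci in both shMETTL3 lists, and the 4 among 28 in both shControl lists. Over all such loci 18.9% were knockdown-only and 22.6% control-only. Of the 6 knockdown-only loci of PTPRM, 3 stood in 1 short stretch. At chr18:7716899-7717462 the folds were 6.29 and 7.74 in the shMETTL3 lists, at chr18:7719048-7719333 they were 4.68 and 5.67, and at chr18:7716044-7716801 they were 4.21 and 5.26. No shControl list had a peak at these 3 loci, although the locus between them, chr18:7717958-7718821, was in all 4 lists, with 4.25 and 6.54 in the shMETTL3 lists and 3.64 and 2.88 in the shControl lists. The strongest locus by its lowest fold, chr18:7672914-7674071, had 7.18 and 7.25 in the shMETTL3 lists and 9.50 and 9.90 in the shControl lists. At chr18:7969280-7969586 the folds were 4.73 and 5.47 in the shMETTL3 lists and 5.76 and 5.47 in the shControl lists.

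Control-only loci of PTPRM lay in another stretch of the gene than knockdown-only ones. The promoter table gives the gene a second start at 7946875. All 6 knockdown-only loci lay before it and all 4 control-only loci after it, a split made after the values were seen. The control-only loci included chr18:7949083-7949270, with folds of 5.12 and 3.05 in the shControl lists, chr18:8386070-8386311 with 2.42 and 4.07, and chr18:7955018-7955271 with 5.79 and 2.25. Before the second start the shMETTL3 lists held 22 and 23 peaks and the shControl lists 14 and 16. From it on the numbers overlapped, with 22 and 23 in the shMETTL3 lists and 20 and 23 in the shControl lists. The split did not hold under every setting: with peaks of a fold of at least 4, 4 knockdown-only loci lay before the second start and 2 after it, and 1 control-only locus before it and 0 after. Without shMETTL3 replicate 1, 11 knockdown-only loci lay before the second start and 6 after it. Without shMETTL3 replicate 2 the numbers were 9 and 3, and without shControl replicate 2 they were 7 and 3. No share of other genes with such a split, or with such a difference in peak number, was computed. At the first start, the locus at chr18:7567337-7567965 was in all 4 lists, with folds of 2.95 and 3.25 in the shMETTL3 lists and 3.46 and 2.87 in the shControl lists.

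**Figure D4:**
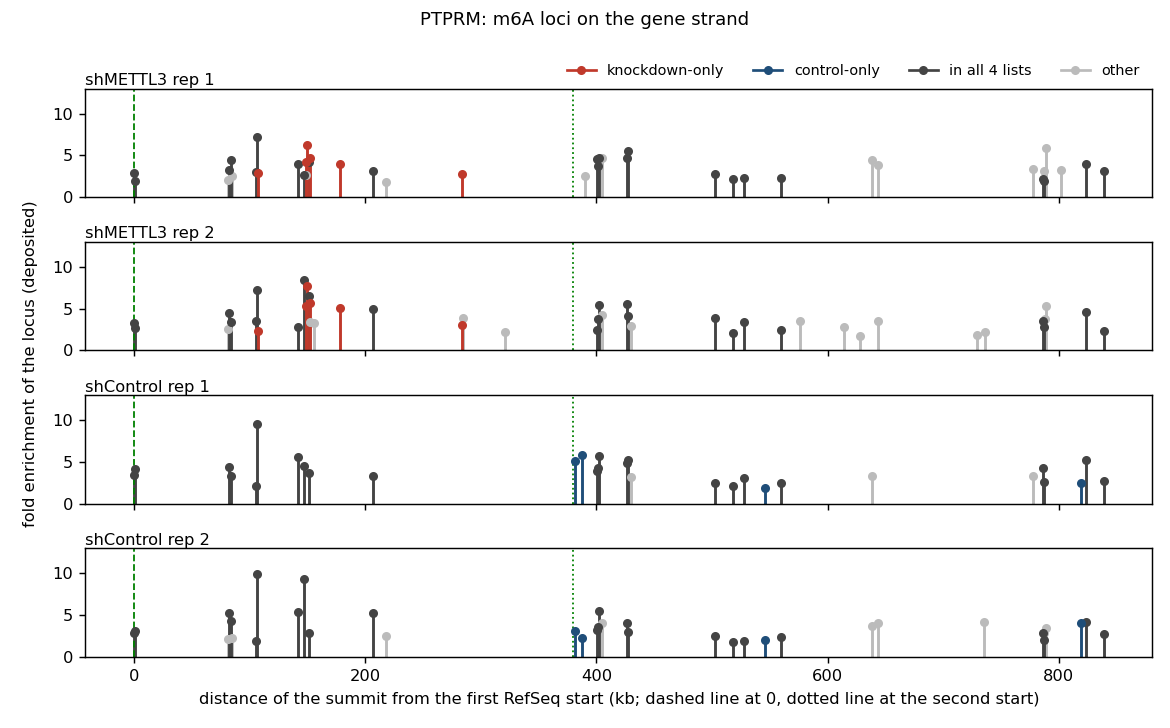
Deposited fold enrichment (vertical axis) of each PTPRM locus against the distance of its summit from the first annotated start in kb (horizontal axis, dashed line at 0, dotted line at the second start), with 1 panel per library and colours for the class of the locus. The 6 knockdown-only loci lie left of the dotted line and the 4 control-only loci right of it.

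PTPRG, which carries a carbonic anhydrase-like domain and binds contactins, had more knockdown-only than control-only loci. It had 14 and 11 peaks in the shMETTL3 lists and 8 and 8 in the shControl lists (plus strand, chr3:61561571-62297609). Of its 17 loci, 4 were knockdown-only, 1 was control-only and 5 were in all 4 lists. The 4 were among 10 loci in both shMETTL3 lists, and the 1 among 7 in both shControl lists. Over all such loci 18.9% were knockdown-only and 22.6% control-only. At its annotated start, chr3:61561513-61562010 had folds of 7.78 and 6.20 in the shMETTL3 lists and 4.92 and 7.55 in the shControl lists. Directly after it, chr3:61562079-61562530 was knockdown-only, with 5.38 and 2.83. Other knockdown-only loci were chr3:62293119-62293327, with folds of 3.12 and 3.07, and chr3:61691273-61691588, with 2.85 and 3.93. The control-only locus, chr3:62220010-62220465, had 2.38 and 2.18 in the shControl lists. A further locus in all 4 lists, chr3:62203239-62203918, had 4.97 and 4.29 in the shMETTL3 lists and 5.71 and 4.14 in the shControl lists. Of its 17 loci 6 also lay in the span of another gene, mostly LOC124906245, otherwise LOC124909389 or PTPRG-AS1, an antisense RNA. Without such loci 1 knockdown-only and 0 control-only loci were left, and with a fold of at least 4 there were 0 of either kind.

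PTPRJ (also called DEP-1), a phosphatase that restrains growth factor receptors, had 8 and 7 peaks in the shMETTL3 lists and 4 and 5 in the shControl lists. All 9 of its loci lay on the plus strand of chr11:47980559-48170839. Its 3 loci in all 4 lists included chr11:48115591-48116005, with folds of 3.56 and 5.67 in the shMETTL3 lists and 4.58 and 4.17 in the shControl lists. The neighbouring chr11:48114671-48115471 had 3.53 and 4.85 in the shMETTL3 lists and 6.74 and 5.26 in the shControl lists. The knockdown-only locus, chr11:48139504-48139657, was weak, with 2.45 and 2.51, and no locus was control-only. In both shMETTL3 lists PTPRJ had 6 loci, and in both shControl lists 3. The shares over all such loci were 18.9% knockdown-only and 22.6% control-only.

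PTPRA and PTPRE, with short extracellular parts, activate Src-family kinases by removing their inhibitory phosphate. PTPRA (plus strand, chr20:2864184-3038669) had 4 and 6 peaks in the shMETTL3 lists and 4 and 8 in the shControl lists, and 7 of its 13 loci were in 1 list. Its locus in all 4 lists, chr20:2964759-2965169, had folds of 4.17 and 4.16 in the shMETTL3 lists and 4.55 and 6.25 in the shControl lists. A knockdown-only locus stood beside it at chr20:2965276-2965710, with folds of 6.80 and 2.36, and the control-only locus was chr20:3035501-3035653, with 3.94 and 3.70 in the shControl lists. PTPRE (plus strand, chr10:127907103-128085855) had 2 and 2 peaks in the shMETTL3 lists and 1 and 0 in the shControl lists. Its only locus in more than 1 list was knockdown-only, at chr10:127953820-127954080, with folds of 5.19 and 5.98. Loci in both shMETTL3 lists numbered 2 for PTPRA and 1 for PTPRE, and in both shControl lists 3 and 0. The shares over all such loci were 18.9% knockdown-only and 22.6% control-only.

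Most loci lay in the interior of these long genes, as in other long genes. Of 177 loci on the gene strand, 3 (1.69%) were within 500 bp of the span start and 6 (3.39%) within the last 2000 bp, against 3.19% and 4.90% over protein-coding genes of at least 50 kb. The count at gene ends was 3 with an end of 1000 bp and 13 with one of 5000 bp. A further 3 loci were on the opposite strand, 2 in PTPRD and 1 in PTPRF. Of the 19 knockdown-only loci, 13 (68.4%) had a summit before 50% of the span, of the 16 control-only loci 7 (43.8%) and of the 61 loci in all 4 lists 21 (34.4%). Over the same protein-coding genes these shares were 47.6%, 40.6% and 42.9%. PTPRM and PTPRF together gave 9 of the 13. PTPRD gave 15 of the 61 loci in all 4 lists, with 0 of them before 50% of its span. Just outside a span, within 10 kb on the gene strand, loci were found at PTPRA alone, the nearest 1627 bp before its start and in 1 list, while the first locus inside was 344 bp from the start. Past its end, loci at 7924 and 9369 bp were in all 4 lists. The second had folds of 4.30 and 3.71 in the shMETTL3 lists and 7.29 and 6.99 in the shControl lists. The first 3 PTPRA loci inside its span also lay in the span of VPS16.

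**Figure D5:**
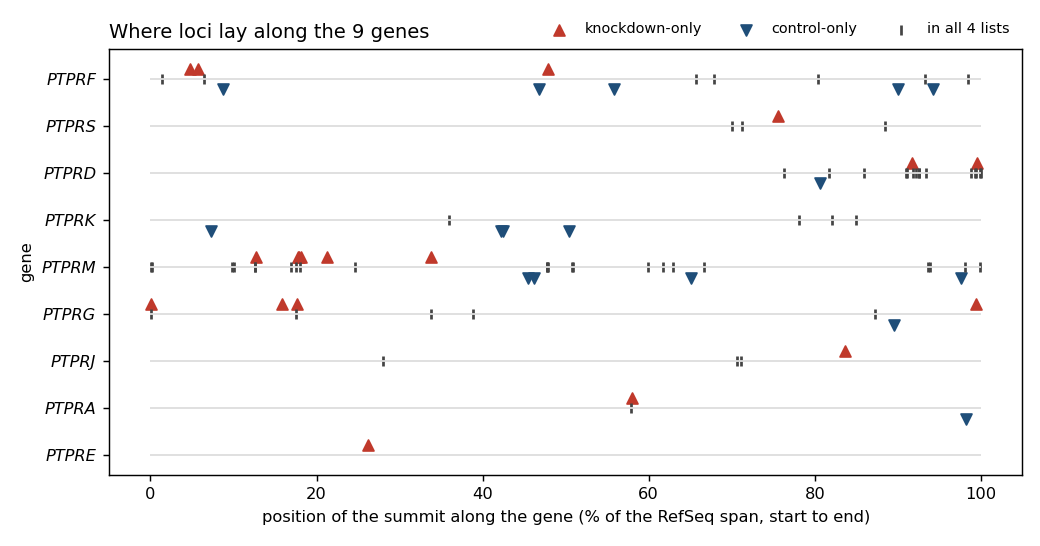
Position of loci on the gene strand along the span of each gene, from start (0%) to end (100%) on the horizontal axis, with the 9 genes on the vertical axis and symbols for the class of the locus. PTPRD loci all lie past 76.3% of the span, and the 6 knockdown-only loci of PTPRM lie left of its 4 control-only loci.

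Control-only loci had lower median folds in the shControl lists than loci in all 4 lists, as over all loci. Of those in all 4 lists, the members' loci had median folds of 3.56 and 4.28 in the shMETTL3 lists and 4.07 and 3.76 in the shControl lists, against 4.52 and 4.46, and 4.35 and 4.15, for all such loci. Knockdown-only loci of the 9 genes had median folds of 3.67 and 3.19 in the shMETTL3 lists, against 3.71 and 3.73 for all such loci. Control-only loci had medians of 2.90 and 2.86 in the shControl lists, against 3.56 and 3.45 for all such loci. Of the 16 control-only loci, 14 had a fold under 4 in at least 1 list, as had 14 of the 19 knockdown-only loci and 45 of the 61 in all 4 lists. Over all loci these shares were 77.7% of control-only, 73.0% of knockdown-only and 65.9% of loci in all 4 lists. Every peak in the lists has a −log10 q of at least 2, and a locus missing from a list may have been just under that threshold.

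Genes with a mix of loci like that of PTPRF were named by the distance between their shares of control-only, knockdown-only and all-4-list loci, over 1046 genes with at least 10 loci in 2 or more of the 4 lists, which leaves out the 9 phosphatases and genes with LOC or LINC names. SDCCAG8 came closest, at 2.76 percentage points, with 1 knockdown-only, 2 control-only and 3 loci in all 4 lists among 10. MIR100HG followed at 2.95 points, then MID1 and TCOF1 at 6.05 each. PTPN1, which encodes the non-receptor phosphatase PTP1B, was at 6.37 points, with 2 knockdown-only, 2 control-only and 4 loci in all 4 lists among 13.

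Of 11 other receptor-type phosphatase genes, 4 carried any peak: PTPRH, PTPRN2, PTPRO and PTPRR. Together they had 1 knockdown-only locus of 10 in both shMETTL3 lists, against 18.9% over all loci, and 5 control-only loci of 15 in both shControl lists (33.3%), against 22.6%. PTPRO, a phosphatase of podocytes and neurons, had 1 and 1 peaks in the shMETTL3 lists and 3 and 4 in the shControl lists, and 2 control-only loci. PTPRH had 4 and 3 in the shMETTL3 lists and 6 and 7 in the shControl lists, with 2 control-only loci. Of the 6181 genes with at least 10 peaks in the 4 lists together, 31.4% had fewer peaks in both shMETTL3 lists. PTPRC (CD45), the leukocyte member, carried none. Non-receptor phosphatases had 11 of 50 loci knockdown-only and 9 of 47 control-only (19.1%), near the 18.9% and 22.6% of all loci. PTPN14, a regulator of YAP, had 3 knockdown-only and 0 control-only loci, and PTPN4 had 0 and 3.

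The liprins and TRIO are cytoplasmic proteins linked to the LAR group. Together their genes held 18 knockdown-only of 56 loci (32.1%, against 18.9% over all loci) and 7 control-only of 47 (14.9%, against 22.6%). TRIO and PPFIBP1 gave 15 of the 18. TRIO, a guanine nucleotide exchange factor that binds PTPRF, had 41 and 39 peaks in the shMETTL3 lists and 31 and 30 in the shControl lists, with 10 knockdown-only and 3 control-only loci. PPFIBP1, a liprin-beta, had 25 and 22 peaks in the shMETTL3 lists and 14 and 16 in the shControl lists, with 5 knockdown-only loci and 0 control-only. PPFIA4, a liprin-alpha, had 0 and 0 peaks in the shMETTL3 lists and 5 and 5 in the shControl lists, with 4 control-only loci. PPFIA1 had 2 knockdown-only and 5 in all 4 lists. Of the 6181 genes with at least 10 peaks, 20% had more peaks in both shMETTL3 lists and 31.4% had fewer.

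Ligands of the family held loci of both kinds. Among adhesion ligands, 5 of 26 loci were knockdown-only (19.2%, against 18.9% over all loci) and 10 of 33 control-only (30.3%, against 22.6%). IL1RAP, which binds PTPRD and PTPRS at synapses, had 7 and 6 peaks in the shMETTL3 lists and 0 and 0 in the shControl lists, with 5 knockdown-only loci. IL1RAPL1, a PTPRD ligand of the same family, had 15 and 15 peaks in the shMETTL3 lists and 25 and 32 in the shControl lists, with 9 control-only loci and 0 knockdown-only. More peaks in both shMETTL3 lists were found in 20% of the 6181 genes with at least 10 peaks, and fewer in 31.4%. Proteoglycan ligands had 4 of 18 loci knockdown-only (22.2%) and 5 of 19 control-only (26.3%), near the same shares of all loci. HSPG2, which encodes perlecan, had 2 knockdown-only and 1 control-only, and SDC1, a syndecan, 0 and 1.

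Genes of adherens junctions, where PTPRM and PTPRK act, had 0 of 10 loci knockdown-only, against 18.9% over all loci, and 6 of 19 control-only (31.6%), against 22.6%. CTNND1, which encodes p120 catenin, had 10 and 8 peaks in the shMETTL3 lists and 15 and 13 in the shControl lists, with 3 control-only loci. Fewer peaks in both shMETTL3 lists were found in 31.4% of the 6181 genes with at least 10 peaks. CDH2, N-cadherin, had 4 and 2 peaks in the shMETTL3 lists and 6 and 4 in the shControl lists, with 2 control-only loci, and CTNNB1, beta-catenin, had 1. These lists were chosen with earlier results known, and their shares are descriptions without a test.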

How the data were processed

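The values are from 4 m6A peak lists in narrowPeak format, 1 per library. Per the submitters' processing notes, the build was hg38 and the tools, named without roles, were MACS2 2.2.7.1, SAMtools, HISAT2 2.1.0, Bowtie2 2.4.2 and Trim Galore 0.6.6. The peak names show that peaks were called per library and strand, not on pooled replicates, and the kit was stranded, per the labels' protocols. The sources used here do not give how inputs or the methylated spike-in entered the calls. The fold enrichment of a peak is a ratio, deposited by the authors. The p-values and q-values were deposited by the authors as −log10 values, and a deposited score column was left aside.

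Peaks were merged with Python 3.11.15 and pandas 2.3.3, and the merging was tested on simulated data. Gene spans came from a RefSeq table and strands from a promoter table. PTPRJ, which has no entry in the promoter table, took the strand of its peaks. All 9 members are named. Loci described were up to 3 control-only, 3 knockdown-only and 2 in all 4 lists per gene by lowest fold, and all control-only and knockdown-only loci of PTPRF. Further loci, such as those at annotated starts, and the genes named from other lists were chosen after their values were seen. The members and lists were chosen with earlier results of these data known. No test was run, because presence in the lists chose the members. Read depth is unknown.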

Additional observations from a re-analysis of the deposited data

How the results depend on the processing

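Over the 9 genes, stricter peak lists lowered all counts: with a fold of at least 4 there were 9 knockdown-only, 4 control-only and 16 loci in all 4 lists, and with a −log10 q of at least 20 there were 11, 7 and 36, in part because fewer peaks enter. With that fold cut the shares over all loci were 27.6% knockdown-only, 25.0% control-only and 23.1% in all 4 lists. With that q cut they were 19.2%, 23.3% and 33.2%. With a reciprocal overlap of at least 50%, control-only loci numbered 25, and the control-only share over all loci was 28.2%. Leaving out 1 library gave 21 to 38 knockdown-only and 22 to 25 control-only loci, since a class then needs fewer lists. The shares over all loci rose too, to 22.8% to 26.5% knockdown-only and 28.4% to 30.1% control-only. Knockdown-only loci rose most without shMETTL3 replicate 1 (36) or 2 (38), and control-only loci without shControl replicate 2 (25). With lists of equal length there were 23 knockdown-only and 12 control-only loci. The shares over all loci moved as well, to 20.9% knockdown-only and 21.1% control-only. On the gene strand only, or without loci in other genes, the counts were within 1.5 times those reported. Of 272 values for single genes and gene ends under the alternatives, 74 moved by more. Among them, PTPRM had 17 knockdown-only loci without shMETTL3 replicate 1 and 12 without replicate 2. The split of PTPRM at its second start, chosen after the values were seen, was weaker with reciprocal overlap (4 control-only loci before and 5 after). No paired analysis was possible because the results come from no test.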
